A study of Mus musculus with 31 samples.

Results

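The genes of the GSK3-FBXW7 degradation route were followed here as a list of 8: the kinase gene Akt1, the GSK3 kinase genes Gsk3a and Gsk3b, the substrate receptor gene Fbxw7, the ligase core genes Cul1, Rbx1 and Skp1a, and the deubiquitinase gene Usp28. They were taken by name, with earlier results of these data known, and all 8 were present in both count tables. They make up 8 of the 35275 genes counted in the 15 livers of the insulin experiment and 8 of the 54532 genes counted in the 16 samples of the ERRα3SA experiment. All 8 passed the filter on low counts in each of 8 comparisons.

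RNA-sequencing measured the RNA of liver and skeletal muscle as counts per gene in 31 samples from 8 groups. All mice were males of 2 to 3 months on the C57BL/6N background, kept on a normal diet. In the insulin experiment, mice were fasted for 12 h, injected intraperitoneally with saline or with insulin at 1 unit/kg, and their livers were taken 4 h later. Its groups were wild-type (WT) mice given saline (4 livers), WT mice given insulin (4 livers), mice with a global loss of the nuclear receptor ERRα (ERRα-/-, called KO here) given saline (4 livers), and KO mice given insulin (3 livers, numbered 1, 2 and 4). The ERRα3SA (3SA) mice carried a homozygous CRISPR change of the Esrra gene that replaces serines 19, 22 and 26 of ERRα by alanine. From 3SA mice and their WT littermates came 4 livers and 4 muscles each. These mice had free access to the diet, and no fast before collection was described for them. Whether equal numbers in liver and muscle mean one mouse was not given.

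As background, AKT, switched on by insulin, phosphorylates and restrains the GSK3 kinases, and GSK3 phosphorylation can turn a protein into a target of FBXW7. FBXW7 is the F-box protein that carries such targets to the SCF ubiquitin ligase, built on the CUL1 scaffold with the RING protein RBX1 and the adaptor SKP1, while USP28 can take the ubiquitin off again. In liver and muscle GSK3 is best known for restraining glycogen synthesis. These steps act on proteins, and mRNA counts measure neither phosphorylation nor protein amount. The question put to the counts was whether the mRNA of the 8 genes changed with insulin, with loss of ERRα or with ERRα3SA.

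Total counts ran from 35871419 to 48317108 per liver of the insulin experiment and from 20481405 to 33412022 per sample of the 3SA experiment. The lowest count of any of the 8 genes in a single sample was 73, for Usp28 in KO saline replicate 1. Levels below are counts scaled to library size (CPM) after trimmed-mean (TMM) scaling within each table, and levels were not compared between tables. On the GRCm38 build, Akt1 (ENSMUSG00000001729) lies at chr12:112653821-112674884, Gsk3a (ENSMUSG00000057177) at chr7:25228258-25237851, and Gsk3b (ENSMUSG00000022812) at chr16:38089001-38246084. Fbxw7 (ENSMUSG00000028086) lies at chr3:84815268-84979198, Cul1 (ENSMUSG00000029686) at chr6:47453398-47526139, and Rbx1 (ENSMUSG00000022400) at chr15:81466296-81476369. Skp1a (ENSMUSG00000036309) lies at chr11:52231995-52246858 and Usp28 (ENSMUSG00000032267) at chr9:48985375-49042517. Gsk3a shares 820 of its 2900 exon bases with the antisense gene 9130221H12Rik, which averaged between 0.329 and 1.71 CPM in the 8 groups. Cul1 shares 192 exon bases with the pseudogene A930035D04Rik, which averaged at most 0.307 CPM. The Rbx1 pseudogene Rbx1-ps averaged at most 0.0503 CPM.

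The promoters of Akt1 and Usp28 are printed because these were the members with an unadjusted p under 0.05 for KO against WT livers after saline, although neither passed the adjusted threshold (adjusted p = 0.263 and 0.277). Each line is the 300 bases that end 50 bases after a transcription start, 5′ to 3′, from RefSeq on GRCm38.p6, and capitals mark a match to AGGTCA. Akt1 promoter 1 is chr12:112674227-112674526 and Akt1 promoter 2 is chr12:112674835-112675134, both on the minus strand, and the Usp28 promoter is chr9:48985135-48985434 on the plus strand.
Akt1 promoter 1: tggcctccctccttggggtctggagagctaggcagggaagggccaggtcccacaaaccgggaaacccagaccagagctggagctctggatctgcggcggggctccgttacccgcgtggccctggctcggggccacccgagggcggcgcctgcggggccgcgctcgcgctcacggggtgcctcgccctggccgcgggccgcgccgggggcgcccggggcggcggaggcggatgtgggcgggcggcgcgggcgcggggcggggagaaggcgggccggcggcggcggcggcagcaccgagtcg
Akt1 promoter 2: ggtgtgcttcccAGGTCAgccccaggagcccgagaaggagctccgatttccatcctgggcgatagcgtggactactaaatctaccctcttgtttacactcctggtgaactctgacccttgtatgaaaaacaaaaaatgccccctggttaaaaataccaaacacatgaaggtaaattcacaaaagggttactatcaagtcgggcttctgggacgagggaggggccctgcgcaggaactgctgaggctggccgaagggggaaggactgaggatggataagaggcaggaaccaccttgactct
Usp28 promoter: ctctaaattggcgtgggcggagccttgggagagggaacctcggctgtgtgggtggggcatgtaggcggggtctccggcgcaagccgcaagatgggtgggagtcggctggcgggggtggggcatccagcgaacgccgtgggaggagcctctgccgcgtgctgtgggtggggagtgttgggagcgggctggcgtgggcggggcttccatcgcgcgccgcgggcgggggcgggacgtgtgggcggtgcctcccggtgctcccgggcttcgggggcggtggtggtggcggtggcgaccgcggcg

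The letter patterns related to the ERR response element, which are AGGTCA and the longer AAGGTCA and TNAAGGTCA that contain it, were searched on both strands in the 13 promoter windows of the 8 members. The single match was AGGTCA in Akt1 promoter 2, on the strand of the gene, at position -238 from the start site. AAGGTCA and TNAAGGTCA occurred in 0 of the 13 windows, nor did they occur in the Esrra window. Among all 32851 promoters of this length, 16.3% held AGGTCA, 4.72% held AAGGTCA and 1.28% held TNAAGGTCA. Akt1 promoter 1 had 79.7% G and C bases and Akt1 promoter 2 had 52.3%, against a median of 52.7% over all promoters. The Usp28 promoter had 74.7%. A match is a run of letters and says nothing of binding, and a missing match says only that these letters are not in these windows.

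The labels were checked first with Esrra itself and with tissue markers. Esrra (ENSMUSG00000024955, chr19:6910977-6921813) read 32.2, 51.3, 42.7 and 40.6 CPM in WT saline livers and 1.63, 0.703, 1.15 and 1.04 CPM in KO saline livers. It read 53.8, 96.1, 56.0 and 59.0 CPM in WT insulin livers and 0.833, 0.576 and 0.299 CPM in KO insulin livers. Every KO liver lay far under every WT liver, at log2 fold changes of -5.20 (adjusted p = 2.6e-06) and -6.86 (adjusted p = 3.6e-05), lower in 4 of 4 and in 3 of 3 KO livers. The 6 hepatocyte markers summed to between 54352 and 104305 CPM in the livers, with Alb the most abundant, and to at most 18.6 CPM in the muscles, where Hnf4a was at 0. The 6 muscle fiber markers summed to at least 84886 CPM in the muscles, with Myh4 the most abundant, and to under 15 CPM in each liver except WT insulin replicate 3, where they summed to 105 CPM. Clec4f, a Kupffer cell marker, was at 0 in the muscles.

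Several libraries stood apart from their groups before any member was considered. In 3SA muscle replicate 1, genes of the mitochondrial genome took 19.3% of the counts, against 9.15% to 9.85% in the other 3SA muscles and 10.04% to 10.8% in WT muscles. In that library the fiber marker sum was 174192 CPM, against 84886 to 109000 CPM in the other 3SA muscles, and Esrra read 23.6 CPM, against 100.1, 128 and 135 CPM. Whether this sample came from another muscle or from another mouse than its label says was not tested, and results in 3SA muscle are therefore given with and without it. In 3SA muscle replicate 4 the 5 stellate cell and fibroblast markers summed to 2845 CPM, against 1015 to 1519 CPM in the other 7 muscles, and the 5 macrophage markers to 83.3 CPM, against 23.5 to 33.3 CPM. In 3SA liver replicate 4 the hepatocyte sum was 54352 CPM, against 83750 to 104305 CPM in the other 7 livers of that experiment. In the insulin experiment the hepatocyte sum was 98718 to 103631 CPM in KO insulin livers and 81392 to 93114 CPM in WT insulin livers, without overlap, while the saline groups overlapped. In WT insulin replicate 2 the mitochondrial share was 1.88%, against 3.88% to 4.17% in the rest of its group, and KO saline livers had 3.16% to 3.91%, against 3.68% to 4.82% in WT saline livers. The 4 adipocyte markers summed to 57.5 to 105 CPM after insulin and 13.3 to 49.9 CPM after saline in WT livers, nearly all of it from Cidec, and Lep was at 0 after saline. In these bulk samples fewer cells of a type and less RNA per cell cannot be told apart. The part of these library differences in the values below was not tested, except where a value without a library is given.

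**Figure D1:**
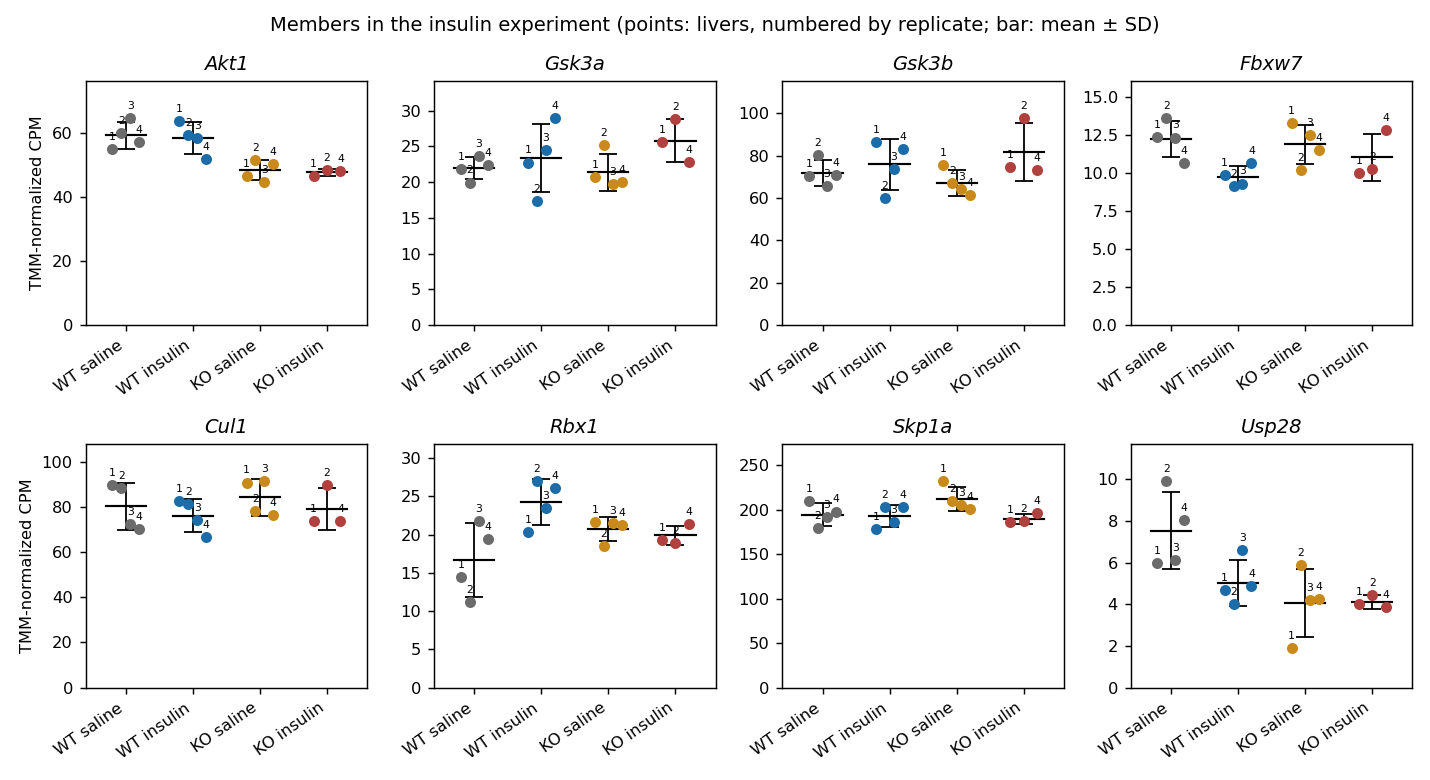
TMM-normalized CPM of the 8 members in each liver of the insulin experiment, 4 livers a group and 3 for KO insulin, each point labelled with its replicate number and the bar giving mean ± SD. The Akt1 points of both KO groups sit under those of both WT groups, from 44.9 to 51.6 CPM against 51.8 to 64.7 CPM.

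Insulin was compared with saline within each genotype. In WT livers, 0 of the 8 genes passed an adjusted p under 0.05 in edgeR, against 3.16% of the 13463 genes tested, and 0 passed in DESeq2, which called 893 of 20147 genes. At an unadjusted p under 0.05 in edgeR 3 of 8 passed, against 2353 of all 13463 genes, and the same 3 also had a fold change of at least 1.2, together called the unadjusted rule here: Rbx1 was higher, and Fbxw7 and Usp28 were lower. In edgeR that rule called 17.2% of all genes tested. The study used these 2 thresholds with DESeq2. By them the DESeq2 fit made here called 2 of 8, Rbx1 and Usp28, while Fbxw7 had an unadjusted p of 0.0556. In that fit 2620 of all 20147 genes had an unadjusted p under 0.05. The groups did not overlap for 0 of 8 genes, against 12.4% of all genes. The median log2 fold change of the 8 was -0.02, against 0.00 for all genes, with 3 genes higher and 5 lower.

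In KO livers, insulin again left 0 of 8 past the adjusted threshold in edgeR and 0 in DESeq2, against 2.91% of 13684 genes in edgeR and 956 of 19789 in DESeq2. By the unadjusted rule 1 of 8 was called in edgeR and 1 in DESeq2, Gsk3b, higher after insulin, against 17.2% of all genes in edgeR. In edgeR 1 of 8 had an unadjusted p under 0.05, against 2430 of all 13684 genes, and in DESeq2 2570 of 19789 genes had one. The groups did not overlap for 1 of 8, Skp1a, against 17.6% of all genes. The median log2 fold change of the 8 was -0.04, against -0.02 for all genes. Averaged over both genotypes in a fit of all 15 livers, an alternative chosen after the data were seen, the adjusted count was 0 of 8 against 8.6% of 14670 genes. The count by the unadjusted rule was then 0 of 8 against 18.5%, with Fbxw7 the only member at an unadjusted p under 0.05, against 3246 of all 14670 genes.

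Loss of ERRα was compared after saline and after insulin. After saline, 0 of 8 passed the adjusted threshold in edgeR and 0 in DESeq2, against 0.0816% of 13481 genes in edgeR and 214 of 20106 in DESeq2. The unadjusted rule called 2 of 8 with both tools, Akt1 and Usp28, both lower in KO, against 11.3% of all genes in edgeR. An unadjusted p under 0.05 was reached in edgeR by 2 of 8, against 1625 of all 13481 genes, and in DESeq2 by 1833 of 20106 genes. The same 2 genes were those whose groups did not overlap, against 7.14% of all genes. After insulin, 0 of 8 passed the adjusted threshold in edgeR and 0 in DESeq2, against 0.0585% of 13665 genes in edgeR and 228 of 19832 in DESeq2. The unadjusted rule then called 1 of 8 with both tools, Akt1, again lower in KO, against 9.99% of all genes in edgeR. An unadjusted p under 0.05 was then reached in edgeR by 1 of 8, against 1371 of all 13665 genes, and in DESeq2 by 1516 of 19832 genes. Akt1 was also the only member whose KO and WT insulin livers did not overlap, against 12.4% of all genes. The median log2 fold change of the 8 was -0.04 after saline and 0.00 after insulin, against 0.00 and -0.02 for all genes. The insulin and genotype comparisons share livers, so each gives its own values only.

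Whether insulin acted differently in WT and KO livers was tested as an interaction. It called 0 of 8 members at an adjusted p under 0.05 in edgeR and 0 in DESeq2, and 0% of 14670 genes in edgeR and 20 of 21317 in DESeq2. The unadjusted rule called 1 of 8 with both tools, Rbx1, against 8.79% of all genes in edgeR. In edgeR 1 of 8 had an unadjusted p under 0.05, against 1289 of all 14670 genes, and in DESeq2 1414 of 21317 genes had one.

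In livers of 3SA mice against those of WT littermates, 0 of 8 passed the adjusted threshold in edgeR and 0 in DESeq2, against 0% of 13339 genes in edgeR and 36 of 24400 in DESeq2. The unadjusted rule called 0 of 8 with both tools, against 4.88% of all genes in edgeR, and 1023 of 24400 genes had an unadjusted p under 0.05 in DESeq2. An unadjusted p under 0.05 was reached by 0 of 8, against 996 of all 13339 genes, and the groups did not overlap for 0 of 8, against 4.89%. The median log2 fold change of the 8 was 0.05, against 0.00 for all genes, and the largest in size was 0.11, for Gsk3b. In muscle with all 4 3SA samples, 0 of 8 passed the adjusted threshold in edgeR and 0 in DESeq2, against 0% of 14081 genes in edgeR and 41 of 26331 in DESeq2. There the unadjusted rule called 0 of 8 with both tools, against 4.54% of all genes in edgeR, and 931 of 26331 genes had an unadjusted p under 0.05 in DESeq2. In muscle 0 of 8 had an unadjusted p under 0.05, against 672 of all 14081 genes, and the groups did not overlap for 0 of 8, against 4.37%.

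**Figure D2:**
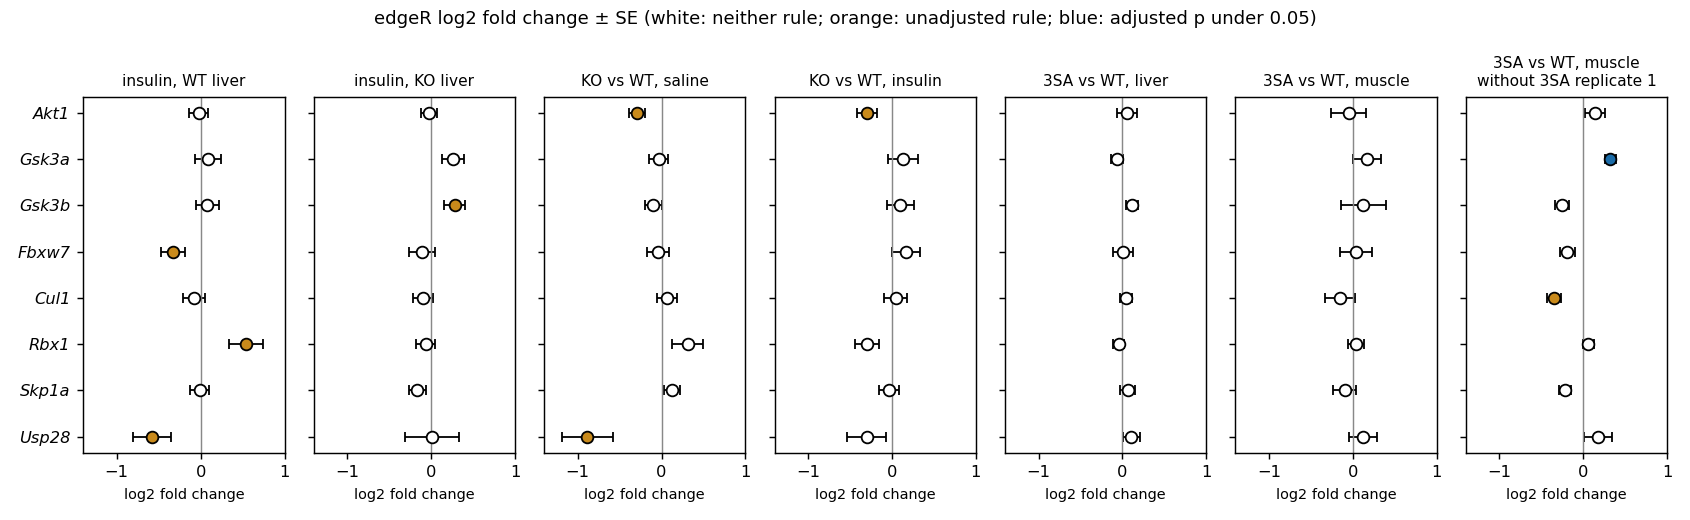
Log2 fold change of each member from edgeR with its standard error in 6 comparisons and in 3SA muscle without 3SA replicate 1, each fitted on 3 or 4 samples a group. White points met neither rule, orange points met the unadjusted rule, and the blue point, Gsk3a at 0.32 in the last panel, had an adjusted p under 0.05.

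Akt1, the upstream kinase gene, read 55.1, 60.2, 64.7 and 57.2 CPM in WT saline livers and 46.7, 51.6, 44.9 and 50.3 CPM in KO saline livers. Each KO liver was under each WT liver. After insulin it read 64.0, 59.3, 58.6 and 51.8 CPM in WT livers and 46.5, 48.4 and 48.3 CPM in KO livers. Again the groups did not overlap, though the highest KO value of either treatment, 51.6 CPM, nearly met the lowest WT value, 51.8 CPM. Over both treatments together the 7 KO livers lay under the 8 WT livers for Akt1, which held for 1 of 8 members and for 0.573% of 14670 genes in either direction. The log2 fold change in KO was -0.29 ± 0.10 (SE) after saline (edgeR unadjusted p = 0.0111, adjusted p = 0.263), lower than the WT mean in 4 of 4 KO livers. After insulin it was -0.30 ± 0.12 (unadjusted p = 0.0293, adjusted p = 0.42), lower in 3 of 3. The hepatocyte marker sums of those 2 groups did not overlap either, as given above, and their part in the Akt1 difference was not tested.

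Averaged over saline and insulin in a fit of all 15 livers, chosen after the data were seen, Akt1 was lower in KO by a log2 fold change of -0.29 ± 0.07 (adjusted p = 0.0483), lower than the WT mean of the same treatment in 7 of 7 KO livers. Akt1 was the 1 of 8 members called this way, against 1.4% of 14670 genes, and the unadjusted rule called 2 of 8, Akt1 and Usp28, against 10.4%. Over its 15 alternatives the saline comparison gave Akt1 log2 fold changes from -0.32 to -0.25, with adjusted p from 0.0483 to 0.475, and only the averaged fit had an adjusted p under 0.05. Akt1 met the unadjusted rule in 13 of these 15. After insulin the unadjusted p was over 0.05 with any 1 of the 3 KO livers left out, the log2 fold change then being -0.28, -0.31 or -0.29, and also without WT insulin replicate 1, at -0.26. The interaction for Akt1 was 0.00 ± 0.14. Insulin against saline gave -0.02 ± 0.11 in WT and -0.02 ± 0.10 in KO livers. The mitochondrial share of counts had a median of 3.19% in KO and 4.40% in WT saline livers, with the overlapping ranges given above. With the mitochondrial genes left out, also chosen after the data were seen, the Akt1 difference after saline was -0.29 (adjusted p = 0.267). Over all genes 11 passed the adjusted threshold with or without these genes, so that fit could not decide on the share. The part of the share in the Akt1 difference was not tested.

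In the 3SA experiment Akt1 read 48.9, 51.9, 51.3 and 54.1 CPM in WT livers and 48.3, 49.6, 47.8 and 66.1 CPM in 3SA livers. The 3SA value of 66.1 CPM belongs to replicate 4, the library with the low hepatocyte sum, and the other 3SA livers lay within or just under the WT range. The log2 fold change was 0.06 ± 0.12 with that library and -0.08 ± 0.06 without it. In muscle Akt1 read 54.6, 51.3, 57.6 and 55.9 CPM in WT and 30.5, 55.8, 51.4 and 73.9 CPM in 3SA samples. The low 3SA value was replicate 1 and the high one replicate 4, both among the libraries that stood apart, and the log2 fold change was -0.05 ± 0.21 with all samples, 0.14 ± 0.12 without replicate 1 and -0.03 ± 0.07 without both, a choice made after the data were seen.

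Gsk3a and Gsk3b encode the kinases that mark substrates for FBXW7. Gsk3b read 70.5, 80.4, 65.5 and 70.8 CPM in WT saline livers and 86.6, 60.0, 73.7 and 82.9 CPM in WT insulin livers. The insulin group held both the highest and the lowest of these values. In KO livers Gsk3b read 75.5, 66.9, 64.3 and 61.4 CPM after saline and 74.6, 97.6 and 73.4 CPM after insulin. KO insulin replicate 2 was the highest liver of the experiment, while the other KO insulin livers lay inside the saline range. The insulin effect on Gsk3b was a log2 fold change of 0.08 ± 0.14 in WT and 0.28 ± 0.13 in KO livers (unadjusted p = 0.0474, adjusted p = 0.277), higher than the saline mean in 3 of 3 KO insulin livers. Without KO insulin replicate 2 it was 0.14 (adjusted p = 0.716). The unadjusted rule was met for Gsk3b in KO livers in 7 of 13 alternatives. The difference between genotypes in the insulin effect was -0.21 ± 0.19 (adjusted p = 0.775), and KO against WT gave -0.10 ± 0.10 after saline and 0.10 ± 0.16 after insulin.

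Gsk3a read between 17.4 and 28.9 CPM in the 15 livers of the insulin experiment, and its group ranges overlapped in all 4 pairwise comparisons there. Its mean ± SD was 21.9 ± 1.53 CPM in WT saline, 23.4 ± 4.78 CPM in WT insulin, 21.4 ± 2.58 CPM in KO saline (n = 4 each) and 25.8 ± 3.04 CPM in KO insulin livers (n = 3). The largest of its log2 fold changes was 0.26 ± 0.13 with insulin in KO livers (unadjusted p = 0.0713, adjusted p = 0.333), higher in 3 of 3. Per kilobase of exon, joined over all annotated transcripts of a gene, Gsk3b and Gsk3a mRNA stood near equal in these livers. The Gsk3b to Gsk3a ratio was 0.973 ± 0.156 in WT saline livers, and its size depends on these annotated lengths. In the livers of the 3SA experiment the ratio was 0.402 ± 0.0303 in WT and 0.456 ± 0.0417 in 3SA mice, and the experiments, which come from different mice and count tables, were not compared.

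In the livers of the 3SA experiment Gsk3a read between 31.3 and 34.2 CPM in WT and between 28.4 and 34.2 CPM in 3SA mice, a log2 fold change of -0.07 ± 0.08. Gsk3b read 41.7, 44.0, 47.1 and 43.3 CPM in WT and 48.7, 47.5, 51.4 and 41.2 CPM in 3SA livers. All but 3SA liver replicate 4 lay above the WT range, and the log2 fold change was 0.11 ± 0.07 (unadjusted p = 0.154, adjusted p = 0.754), higher in 3 of 4. Without replicate 4 it was 0.17 ± 0.06 (unadjusted p = 0.0277, adjusted p = 0.446).

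Fbxw7, the substrate receptor of the ligase, read 12.4, 13.6, 12.3 and 10.7 CPM in WT saline livers and 9.84, 9.16, 9.30 and 10.7 CPM in WT insulin livers. The groups touched only where the lowest saline liver and the highest insulin liver, both replicate 4, read alike. The log2 fold change was -0.33 ± 0.14 (unadjusted p = 0.04, adjusted p = 0.257), lower than the saline mean in 4 of 4 insulin livers. Leaving out a library kept it between -0.39 and -0.27, but the unadjusted p stayed under 0.05 only without WT saline replicate 4 or WT insulin replicate 4. In KO livers Fbxw7 read 13.3, 10.2, 12.5 and 11.5 CPM after saline and 9.996, 10.2 and 12.8 CPM after insulin. These groups overlapped, with a log2 fold change of -0.11 ± 0.15 (adjusted p = 0.771), and the difference between genotypes was -0.22 ± 0.20 (adjusted p = 0.771). KO against WT gave -0.04 ± 0.13 after saline and 0.17 ± 0.16 after insulin. In the 3SA livers Fbxw7 spanned 10.3 to 12.8 CPM, inside the WT span of 10.3 to 13.9 CPM, with a log2 fold change of 0.01 ± 0.11.

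Rbx1, the RING subunit that brings in the ubiquitin-loaded enzyme, read 14.5, 11.1, 21.8 and 19.4 CPM in WT saline livers and 20.4, 27.0, 23.4 and 26.1 CPM in WT insulin livers. WT saline replicates 1 and 2 were low, while WT saline replicate 3 lay inside the insulin range. In KO livers Rbx1 read 21.6, 18.5, 21.6 and 21.3 CPM after saline and 19.3, 18.96 and 21.4 CPM after insulin, with the groups overlapping. The insulin effect was a log2 fold change of 0.54 ± 0.20 in WT (unadjusted p = 0.0211, adjusted p = 0.195), higher than the saline mean in 4 of 4, and -0.06 ± 0.11 in KO livers (adjusted p = 0.832). The difference of 0.60 ± 0.25 between these effects had an unadjusted p of 0.0288 and an adjusted p of 0.542. It met the unadjusted rule in 15 of its 20 alternatives. Without WT saline replicate 2 the WT effect was 0.38 (unadjusted p = 0.0501), and the unadjusted p was also over 0.05 without WT saline replicate 1 or without WT insulin replicate 2, the library with the low mitochondrial share. KO against WT gave 0.31 ± 0.18 after saline and -0.30 ± 0.14 after insulin, the latter lower in 3 of 3 KO livers (unadjusted p = 0.066, adjusted p = 0.523).

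Cul1, the scaffold, read between 66.5 and 91.5 CPM in the livers of the insulin experiment, and its log2 fold changes there ran from -0.10 with insulin in KO to 0.07 with loss of ERRα after saline. Skp1a, the adaptor between CUL1 and the F-box protein, read 232, 210, 205 and 201 CPM in KO saline livers and 186, 187 and 196 CPM in KO insulin livers. Each KO insulin liver was under each KO saline liver, at a log2 fold change of -0.16 ± 0.10 (unadjusted p = 0.145, adjusted p = 0.457), lower in 3 of 3. In WT livers Skp1a read between 179 and 209 CPM with either treatment, a log2 fold change of -0.01 ± 0.11, and KO against WT gave 0.13 ± 0.10 after saline and -0.03 ± 0.12 after insulin. In the 3SA livers the log2 fold changes were 0.04 ± 0.07 for Cul1, -0.04 ± 0.07 for Rbx1 and 0.07 ± 0.09 for Skp1a, all with overlapping groups.

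Usp28, the deubiquitinase that can oppose FBXW7, read 5.99, 9.93, 6.15 and 8.06 CPM in WT saline livers and 1.92, 5.89, 4.22 and 4.25 CPM in KO saline livers. No KO liver reached the lowest WT liver, although KO saline replicate 2, at 5.89 CPM, came close, and KO saline replicate 1 was the lowest of all at 73 counts. The log2 fold change was -0.88 ± 0.30 (unadjusted p = 0.0135, adjusted p = 0.277), lower than the WT mean in 4 of 4 KO livers, and -0.65 without KO saline replicate 1. With each library left out in turn the unadjusted p stayed at or under 0.0462. Over all 15 alternatives the log2 fold change ran from -1.12 to -0.59 and the adjusted p from 0.113 to 0.465.

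After insulin Usp28 read 4.68, 4.01, 6.60 and 4.89 CPM in WT and 4.03, 4.47 and 3.85 CPM in KO livers. The WT insulin livers lay mostly under the WT saline livers, with WT insulin replicate 3 inside their range, and the KO groups overlapped. Insulin gave a log2 fold change of -0.58 ± 0.23 in WT (unadjusted p = 0.0276, adjusted p = 0.22), lower in 4 of 4, and 0.01 ± 0.32 in KO livers (adjusted p = 0.992). The WT effect was -0.41 without WT saline replicate 2 (unadjusted p = 0.101), and the unadjusted p was also over 0.05 without WT saline replicate 4 or without WT insulin replicate 1, 2 or 4. The difference between genotypes was -0.59 ± 0.40 (adjusted p = 0.685). KO against WT after insulin gave -0.30 ± 0.24 (adjusted p = 0.718), lower in 3 of 3. In the livers of the 3SA experiment Usp28 read 7.84 to 10.2 CPM in WT and 8.91 to 10.3 CPM in 3SA mice, a log2 fold change of 0.10 ± 0.10.

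**Figure D3:**
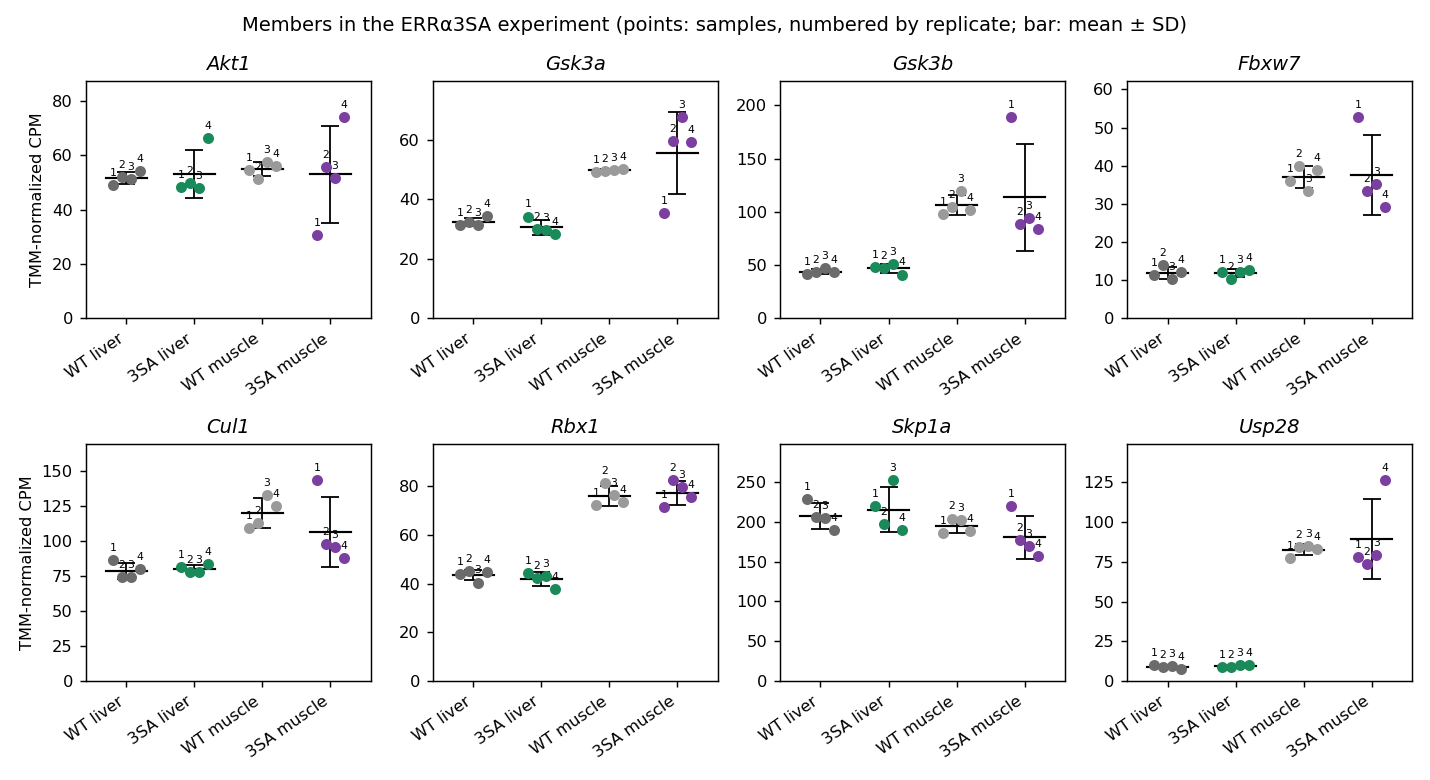
TMM-normalized CPM of the 8 members in each sample of the 3SA experiment, 4 samples a group, each point labelled with its replicate number and the bar giving mean ± SD. In muscle, 3SA replicate 1 lies apart from the other 3SA samples for Gsk3b at 189 CPM, and 3SA replicate 4 for Usp28 at 126 CPM.

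In muscle, 3SA replicate 1 was the highest or the lowest of the 8 samples for 7 of the 8 members, and for 68.1% of 14081 genes. Gsk3b read 98.1, 105, 120 and 102 CPM in WT and 189, 88.2, 94.0 and 84.3 CPM in 3SA muscles. Replicate 1 was the highest of the 8 muscles, and the other 3SA muscles were all under the WT range. The log2 fold change was 0.12 ± 0.27 (adjusted p = 1) with all samples, with 3 of 4 3SA muscles under the WT mean, and -0.26 ± 0.08 (unadjusted p = 0.0118, adjusted p = 0.112) without replicate 1, with 3 of 3 under it. Leaving out that library thus turned the sign.

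Gsk3a read 49.2, 49.5, 49.9 and 50.1 CPM in WT and 35.4, 59.7, 67.5 and 59.3 CPM in 3SA muscles. Replicate 1 was again alone, this time as the lowest, and the other 3SA muscles were all above the WT range, whose SD was 0.378 CPM. With all samples the log2 fold change was 0.16 ± 0.17 (adjusted p = 1), with 3 of 4 3SA muscles above the WT mean. Without replicate 1, Gsk3a rose in 3SA muscle by a log2 fold change of 0.32 ± 0.07 (adjusted p = 0.0382), higher in 3 of 3. Without replicates 1 and 4, a choice made after the data were seen, it was 0.36 ± 0.07 (adjusted p = 0.00498), higher in 2 of 2. Over all its 15 alternatives the adjusted p ran from 0.00498 to 1. Without replicate 1, the mitochondrial shares of 3SA and WT muscles did not overlap either, as given above. Their part in the Gsk3a difference was not tested.

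Cul1 read 109, 113, 133 and 125 CPM in WT and 144, 98.1, 95.9 and 88.2 CPM in 3SA muscles. Replicate 1 was the highest of all 8, and the other 3SA muscles lay under the WT range. The log2 fold change was -0.16 ± 0.18 (adjusted p = 1) with all samples, lower in 3 of 4, -0.35 ± 0.08 (adjusted p = 0.0543) without replicate 1, lower in 3 of 3, and -0.30 ± 0.08 (adjusted p = 0.0246) without replicates 1 and 4, lower in 2 of 2. Skp1a followed the same order, at 219 CPM in replicate 1 and 157 to 177 CPM in the other 3SA muscles, against 186 to 204 CPM in WT. Its log2 fold change was -0.10 ± 0.14 with all samples and -0.22 ± 0.07 (adjusted p = 0.107) without replicate 1, lower in 3 of 3.

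Fbxw7 read 52.7 CPM in 3SA muscle replicate 1 and 29.2 to 35.1 CPM in the other 3SA muscles, against 33.5 to 39.9 CPM in WT, so the groups overlapped with or without that library. Its log2 fold change was 0.04 ± 0.19 with it and -0.19 ± 0.09 (adjusted p = 0.244) without it. Rbx1 stayed between 71.5 and 82.7 CPM in all 8 muscles, at 0.04 ± 0.10 with replicate 1 and 0.06 ± 0.07 without. Usp28 read 77.3, 84.4, 85.1 and 83.2 CPM in WT and 77.9, 73.5, 79.1 and 126 CPM in 3SA muscles. Its high value was replicate 4, the library with the most fibroblast and macrophage marker counts, and not replicate 1. The Usp28 log2 fold change was 0.12 ± 0.17 with all samples, 0.17 ± 0.17 without replicate 1 and -0.08 ± 0.10 without replicate 4.

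Counted over the list without 3SA replicate 1, 1 of 8 members passed the adjusted threshold, against 3.23% of 14363 genes. The unadjusted rule called 2 of 8, Gsk3a and Cul1, against 17.4%, and 4 of 8 had an unadjusted p under 0.05, against 3381 of all 14363 genes. The groups did not overlap for 4 of 8, Gsk3a, Gsk3b, Cul1 and Skp1a, against 22.9% of 14081 genes. Without replicates 1 and 4, 2 of 8 passed the adjusted threshold, against 10.3% of 14586 genes, and 2 of 8 the unadjusted rule, against 17.8%. The median log2 fold change of the 8 without replicate 1 was -0.06, against 0.02 for all genes. Esrra in the same muscles rose by 0.60 ± 0.12 without replicate 1 (adjusted p = 0.0373), higher in 3 of 3, against 0.28 ± 0.41 (adjusted p = 1) with it. Low Esrra was among the values that set replicate 1 apart, so the value without it is not an independent result.

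**Figure D4:**
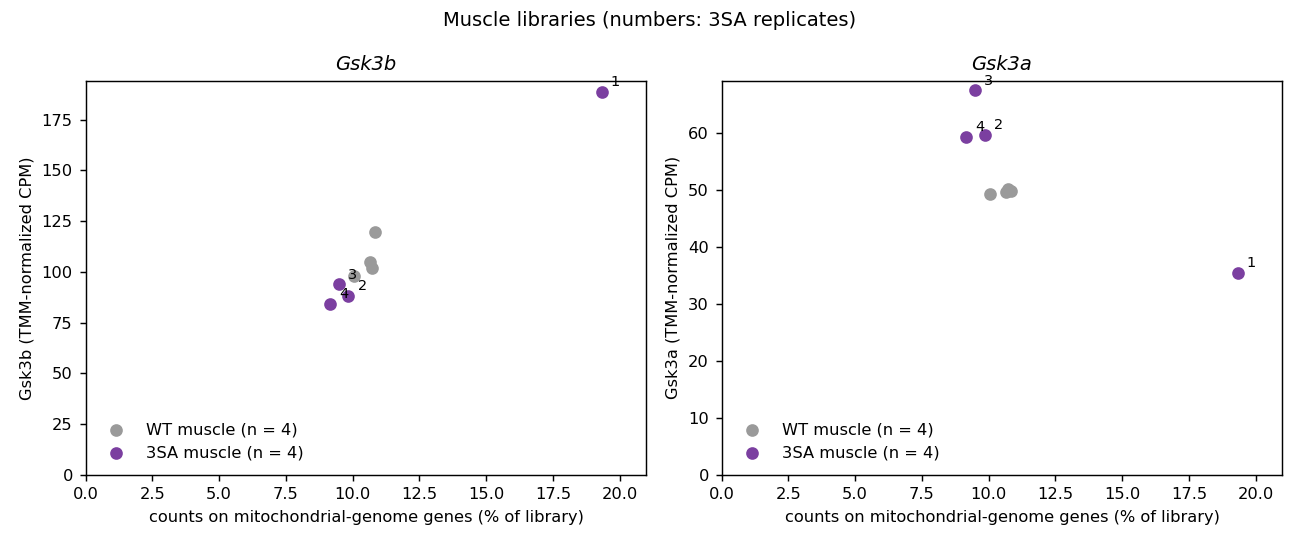
TMM-normalized CPM of Gsk3b (left) and Gsk3a (right) against the percent of counts on mitochondrial-genome genes in 4 WT and 4 3SA muscles, with 3SA replicate numbers. 3SA replicate 1, at 19.3%, is the highest for Gsk3b and the lowest for Gsk3a, while the other 3SA muscles lie under the WT muscles for Gsk3b and above them for Gsk3a.

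Muscle was also compared with liver in the WT littermates. In muscle 6 of 8 were higher than in liver at an adjusted p under 0.05 and 0 lower, against 86.5% of 14886 genes called in either direction, 6411 higher and 6463 lower. The median log2 fold change of the 8 was 0.74, against 0.00 for all genes. Usp28 read 77.3, 84.4, 85.1 and 83.2 CPM in muscle and 10.2, 8.65, 9.33 and 7.84 CPM in liver. Each muscle was far above each liver, 9.31-fold on average, at a log2 fold change of 3.22 ± 0.08 (adjusted p = 6.4e-14), higher in 4 of 4. Fbxw7 read 36.1, 39.9, 33.5 and 38.9 CPM in muscle and 11.5, 13.9, 10.3 and 12.2 CPM in liver. It too had no overlap, at a log2 fold change of 1.66 ± 0.10 (adjusted p = 7.7e-10), higher in 4 of 4. This value is per gene and does not separate isoforms, whereas the study reported the isoform Fbxw7a at similar levels in both tissues.

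The kinase gene Gsk3b was higher in muscle by a log2 fold change of 1.30 ± 0.07 and Gsk3a by 0.65 ± 0.06, and of the ligase core Rbx1 was higher by 0.83 ± 0.06 and Cul1 by 0.64 ± 0.08, each in 4 of 4 muscles. Skp1a, at 186 to 204 CPM in muscle and 190 to 229 CPM in liver, gave -0.06 ± 0.07 (adjusted p = 0.41), and Akt1 gave 0.11 ± 0.06 (adjusted p = 0.0948). The last 2 depended on the scaling. Upper-quartile scaling moved the median of all genes by 0.22 on the log2 scale, with 7214 genes then higher and 5670 lower in muscle, and gave Skp1a 0.16 (adjusted p = 0.0316) and Akt1 0.33 (adjusted p = 2.4e-04), so relative to that shift Skp1a stood lower and Akt1 higher. Total counts with no scaling moved the median by 0.14, with 6928 genes higher and 5960 lower, and gave Skp1a 0.08 and Akt1 0.25 (adjusted p = 0.00269). The other 6 members were called higher in muscle in each of their 16 alternatives.

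**Figure D5:**
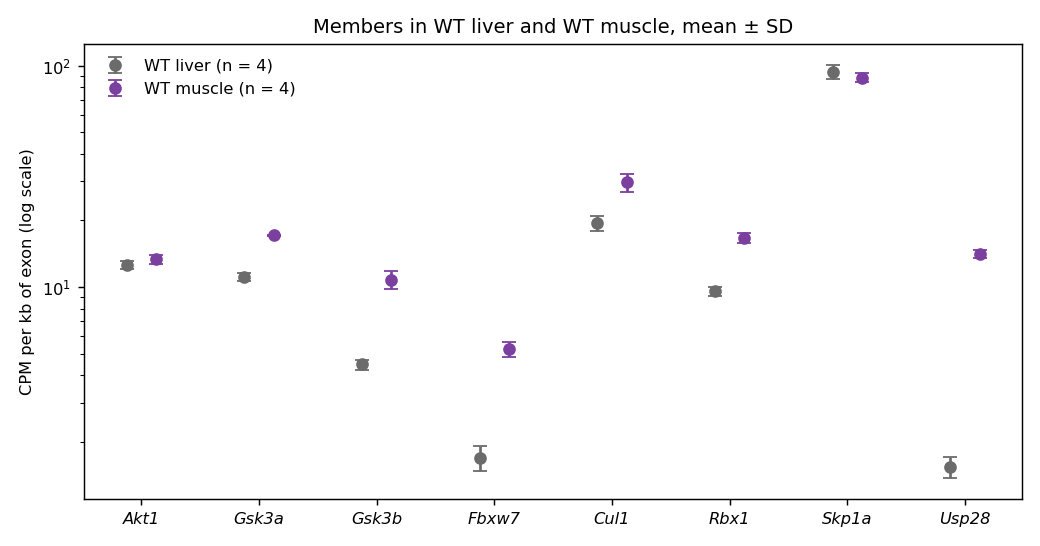
CPM per kilobase of exon (log axis) of the 8 members in WT liver and WT muscle of the 3SA experiment, mean ± SD of 4 samples each. Skp1a is the highest in both tissues, at 93.7 in liver and 88.3 in muscle, and Usp28 shows the widest gap, from 1.54 in liver to 14.1 in muscle.

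Compared per kilobase of exon, the order of the members in WT saline livers was Skp1a at 87.9 ± 5.73 CPM per kilobase, Cul1 at 19.9 ± 2.55, Akt1 at 14.5 ± 1.01, Gsk3a at 7.57 ± 0.529, Gsk3b at 7.30 ± 0.635, Rbx1 at 3.67 ± 1.06, Fbxw7 at 1.74 ± 0.171 and Usp28 at 1.29 ± 0.318 (SD, n = 4). Only the neighbours Gsk3a and Gsk3b, and Fbxw7 and Usp28, overlapped in their ranges. The same order held in all 4 groups of the insulin experiment, with Gsk3a and Gsk3b overlapping in each, and Fbxw7 and Usp28 overlapping in WT saline livers but not in the other 3 groups. In WT saline livers Skp1a stood at the percentile 96.5 of the 11405 genes at or above 1 CPM, Cul1 at 86.2, Fbxw7 at 32.0 and Usp28 at 25.6. Per kilobase of exon, the receptor gene Fbxw7 was thus measured far under Cul1 and Skp1a, whose products also serve other F-box proteins. The exon length of a gene joins the exons of all its annotated transcripts, and the length of the transcripts present was not measured. Order, overlaps and percentiles between genes therefore depend on the annotation, here and below.

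In WT liver of the 3SA experiment the order was Skp1a, Cul1, Akt1, Gsk3a, Rbx1 at 9.58 ± 0.458 CPM per kilobase, Gsk3b at 4.48 ± 0.230, Fbxw7 at 1.70 ± 0.215 and Usp28 at 1.54 ± 0.169, and only the last 2 overlapped. In 3SA liver the order was that of WT liver, with Akt1 and Gsk3a as a further overlapping pair. In WT muscle Skp1a came first at 88.3 ± 4.10 and Cul1 next at 29.7 ± 2.68, followed by Gsk3a and Rbx1 at 17.1 ± 0.130 and 16.7 ± 0.892, whose ranges overlapped. Usp28 and Akt1 overlapped at 14.1 ± 0.606 and 13.4 ± 0.653, above Gsk3b at 10.8 ± 0.969 and Fbxw7 at 5.26 ± 0.416. In 3SA muscle all neighbours from Cul1 down to Gsk3b overlapped, replicate 1 included. The Fbxw7 to Usp28 ratio per kilobase was 1.12 ± 0.223 in WT liver and 0.373 ± 0.0315 in WT muscle, with no overlap.

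Over the 15 livers of the insulin experiment, which include 4 groups, Akt1 and Usp28 had a Pearson r of 0.59, Gsk3a and Gsk3b 0.64, and Skp1a and Usp28 -0.58. Over the 8 livers of the 3SA experiment the same pairs gave 0.04, 0.03 and 0.55. Over the 8 muscles they gave 0.58, -0.89 and -0.53, and without 3SA replicate 1 they gave 0.89, -0.67 and -0.52. These are descriptions over samples that share groups and libraries.

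Other genes of the route were read from lists. Of 15 upstream genes of GSK3, insulin in WT livers called 0 up and 1 down at an adjusted p under 0.05, against 3.16% of all genes. That gene was Pik3r1, a regulatory subunit of PI3-kinase, which fell by 0.72 ± 0.15 on the log2 scale (adjusted p = 0.0248), lower in 4 of 4. In KO livers insulin called 2 up and 1 down of the 15, against 2.91% of all genes. Pdpk1, the kinase that activates AKT, rose by 0.54 ± 0.09 (adjusted p = 0.0171) and the insulin receptor substrate gene Irs2 by 0.95 ± 0.22 (adjusted p = 0.0466), each in 3 of 3, and Pik3r1 fell by 0.64 ± 0.14 (adjusted p = 0.0422), in 3 of 3. The adjusted p was over 0.05 in 6 of 15 alternatives for Pik3r1 in WT livers, and in KO livers in 3 of 13 for Pdpk1, 6 of 13 for Irs2 and 7 of 13 for Pik3r1, in all but 1 case with 1 liver left out. Whether these effects differ between genotypes was called for 0 of the 15 at an adjusted p under 0.05 by the interaction in edgeR. By the unadjusted rule it was called for 5, 1 up and 4 down, against 8.79% of all genes, with a median of -0.33, against 0.02 for all genes. Loss of ERRα called 0 of 15 after saline and 0 of 15 after insulin in edgeR at an adjusted p under 0.05, against 2 and 4 by the unadjusted rule, which called 11.3% and 9.99% of all genes. 3SA called 0 of 15 in liver and in muscle by either rule. Of all genes, 0% passed the adjusted threshold in each tissue, and 4.88% and 4.54% the unadjusted rule. Without 3SA muscle replicate 1 the 15 had 0 adjusted calls and 1 lower by the unadjusted rule, against 3.23% and 17.4% of all genes. Without replicates 1 and 4, chosen after the data were seen, 1 of 15 was higher by either rule, against 10.3% and 17.8%.

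Of 18 other F-box genes, insulin called 0 up and 1 down in WT livers, against 3.16% of all genes. The gene was Fbxo21, which fell by 0.96 ± 0.16 (adjusted p = 0.00998), lower in 4 of 4. In KO livers it called 1 up and 0 down, against 2.91% of all genes, and the gene was Fbxo32, the muscle atrophy F-box gene, which rose by 1.37 ± 0.21 (adjusted p = 0.0109), higher in 3 of 3, from 3.45 to 8.95 CPM. The adjusted p was over 0.05 in 0 of 15 alternatives for Fbxo21 and in 2 of 13 for Fbxo32, each with 1 KO insulin liver left out. Of 19 genes of the cullin neddylation and SCF cycle, insulin called 0 in both genotypes at an adjusted p under 0.05, with 3 and 1 by the unadjusted rule, which called 17.2% of all genes in each. The lowest p in WT livers was that of Rnf7, a relative of Rbx1, at 0.40 ± 0.14 (adjusted p = 0.166), higher in 4 of 4, and in KO livers that of Nedd8, the modifier that activates cullins, at -0.35 ± 0.15 (adjusted p = 0.259), lower in 3 of 3. Nedd8 also had the lowest p of that list for KO against WT after saline, at 0.40 ± 0.11 (adjusted p = 0.23), higher in 4 of 4. Loss of ERRα and 3SA called 0 of the 18 F-box genes and 0 of the 19 cycle genes at an adjusted p under 0.05. By the unadjusted rule loss of ERRα called 5 and 3 after saline, against 11.3% of all genes, and 0 and 0 after insulin, against 9.99%. By that rule 3SA called 0 and 0 in liver, against 4.88%, and 0 and 1 in muscle, against 4.54%. The 7 scaffolds and binding partners of GSK3, the 3 CK2 subunits, the 6 other cullins and the 5 other ubiquitin ligases that the study names for ERRα had 0 adjusted calls with insulin, with loss of ERRα or with 3SA in either tissue in the planned fits with all samples. By the unadjusted rule the largest of their counts in these planned fits was 3 of the 7 scaffolds, 1 up and 2 down, with insulin in WT livers, against 17.2% of all genes. For the 5 other ligases, loss of ERRα called 2 by that rule after saline, both lower, against 11.3% of all genes. After insulin it called 0 of the 5, against 9.99%. In the insulin fit averaged over both genotypes, chosen after the data were seen, the 7 scaffolds had 1 up and 1 down, the 15 upstream genes 2 up and 2 down, the 18 F-box genes 2 up and 2 down, the 12 FBXW7 substrates 1 down and the other lists 0, against 8.6% of all genes.

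Of 12 named FBXW7 substrates, Esrra among them, loss of ERRα called 1 of 11 tested after saline and 1 of 12 after insulin, against 0.0816% and 0.0585% of all genes. The call was Esrra itself in both. Esrra is the gene lost in KO mice, so its call was set by the design and is no result about the substrates. Averaged over both treatments, an alternative chosen after the data were seen, loss of ERRα called 2 of 12, against 1.4% of all genes. Apart from Esrra the only call was Ccne1, at -1.76 ± 0.42 (adjusted p = 0.0483), and 0 genes of the other context lists were called. Insulin called 0 of 12 in WT and 0 of 11 in KO livers in edgeR, against 3.16% and 2.91% of all genes. By the unadjusted rule it called 3 and 3, against 17.2% of all genes in each, with Ppargc1a at 1.22 ± 0.34 in WT (adjusted p = 0.0897), higher in 4 of 4, and Srebf1 at -0.77 ± 0.19 in KO livers (adjusted p = 0.056), lower in 3 of 3. Esrra was among the WT calls, at 0.67 ± 0.21 (edgeR unadjusted p = 0.00754, adjusted p = 0.122), higher in 4 of 4 without overlap. Srebf1, the lipogenic transcription factor gene, was also lower in KO than in WT livers after insulin, at -1.12 ± 0.27 (adjusted p = 0.176), in 3 of 3. In 3SA liver Notch1 had the lowest p of the substrates at 0.50 ± 0.10 (adjusted p = 0.493), higher in 4 of 4.

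Without 3SA muscle replicate 1 calls at an adjusted p under 0.05 went from 0 to 464 over all genes, or 3.23%, and by the unadjusted rule from 4.54% to 17.4%, and the lists gained calls as well. In the cullin and SCF cycle list, Cops6 rose by 0.49 ± 0.06 (adjusted p = 0.00747) and Cdc34, the ubiquitin-conjugating partner of SCF, by 0.30 ± 0.06 (adjusted p = 0.0408), while Cops3 fell by 0.44 ± 0.07 (adjusted p = 0.0184) and Cops2 by 0.41 ± 0.09 (adjusted p = 0.0477), each in 3 of 3. Frat2, Fbxw4 and Stub1 rose by 0.52 ± 0.11, 0.46 ± 0.09 and 0.37 ± 0.06 (adjusted p = 0.0378, 0.0285 and 0.0228), each in 3 of 3. The 6 other cullins had 0 adjusted calls but 4 lower by the unadjusted rule, with a median log2 fold change of -0.30, against 0.02 for all genes. Between WT muscle and liver, 15 of the 19 cullin and SCF cycle genes were higher in muscle and 3 lower, where 86.5% of all genes were called, with a median log2 fold change of 0.62, against 0.00 for all genes. Cand1, which exchanges F-box proteins on CUL1, was lower in muscle at -2.21 ± 0.06 (adjusted p = 2.5e-13), and Cul3 was higher at 2.34 ± 0.07 (adjusted p = 8.0e-13), each in 4 of 4.

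The genes most like Gsk3b and Fbxw7 over the 15 livers of the insulin experiment were sought among 11453 genes at a mean of at least 1 CPM. For Gsk3b they included Itsn2 and Aff1, with Pearson r of 0.88 and 0.86. Over the 8 livers of the 3SA experiment the same pairs gave r of -0.52 and -0.21. For Fbxw7 they were Sf3b4, Mmp14 and Gys2, with r of 0.83, 0.83 and 0.79, and 0.04, 0.01 and -0.03 over the 8 livers of the 3SA experiment. All 5 were at or under 0.04 there.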

How the data were processed

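The deposited files held raw counts per gene, made by the authors with STAR on mm10 per the labels, for 15 livers of the insulin experiment and 16 samples of the 3SA experiment; strand settings were not stated. Each comparison was fitted with edgeR 4.0.16 in R 4.3.3 (TMM, filterByExpr, quasi-likelihood test) on its own groups, the interaction on 4 groups, and p adjusted over all genes tested by Benjamini-Hochberg. The p-values measure spread between mice. Gene positions and exon lengths (exons of all annotated transcripts joined) came from GENCODE M21 on GRCm38, summaries from Python 3.11.15. The test was tried on simulated counts with the same spread for all genes and no outlying library. That trial does not cover the uneven libraries of these data. Alternatives were DESeq2 1.42.0, RLE, upper-quartile and no scaling, no filter, the replicate block, all groups in one fit, each sample left out, and, chosen after the data were seen, mitochondrial genes left out, 3SA muscle replicates 1 and 4 left out and averages over treatment or genotype. Members and lists were chosen with earlier results of these data known. Named were the 8 members, Esrra, up to 4 genes per list and comparison with the smallest adjusted p under 0.05 (otherwise up to 2 with unadjusted p under 0.05), of which some are printed, and genes among the 3 most correlated with Gsk3b and with Fbxw7.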

Additional observations from a re-analysis of the deposited data

Results flagged for a closer look

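In groups of 4 samples, a highest or lowest value was singled out where its gap to the nearest other sample as a part of the range exceeded Dixon's 95% limit, which chance does in about 1 in 20 groups, and 70 groups were tested. It singled out 8 values. Gsk3b read 189 CPM in 3SA muscle replicate 1 against 84.3 to 94.0 CPM in the rest of its group, and the mitochondrial share of that library was 19.3% against 9.15% to 9.85%. Rbx1 read 18.5 CPM in KO saline replicate 2 against 21.3 to 21.6 CPM. Akt1 read 66.1 CPM in 3SA liver replicate 4 against 47.8 to 49.6 CPM. Usp28 read 126 CPM in 3SA muscle replicate 4 against 73.5 to 79.1 CPM. Esrra read 96.1 CPM in WT insulin replicate 2 against 53.8 to 59.0 CPM, and the mitochondrial share there was 1.88% against 3.88% to 4.17%. The mitochondrial share was 3.91% in KO saline replicate 3 against 3.16% to 3.21%. The log2 insulin effect on Rbx1 was 0.60 larger in WT than in KO livers by the interaction (unadjusted p = 0.0288, adjusted p = 0.542 in edgeR). This difference met the unadjusted rule in 15 of its 20 alternatives.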

How the results depend on the processing

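Of the single log2 fold changes of members, 960 stayed on the same side of the adjusted threshold, 7 newly passed it, and 1 newly passed it in the other direction: Skp1a in muscle against liver, 0.16 with upper-quartile scaling (adjusted p = 0.0316). The sign differed from the planned fit in 6 of 120 and 3 of 104 values (insulin, WT and KO), 7 of 120 and 3 of 104 (KO, saline and insulin), 15 of 160 (interaction), 6 of 112 and 9 of 120 (3SA liver and muscle) and 2 of 128 (muscle against liver). Newly passing were Akt1 in KO (averaged fit), Gsk3a and Cul1 in 3SA muscle, and Akt1 in muscle against liver with RLE (adjusted p = 0.0482), upper-quartile or no scaling. Other named genes newly passed in 27 cases and lost it in 25. Adjusted gene counts with DESeq2 were 893 and 956 (insulin, WT and KO), 214 and 228 (KO, saline and insulin), 20 (interaction), 36 and 41 (3SA liver and muscle). With no filter they were 640 (insulin, KO), 30, 31 and 2 (3SA liver), and by the unadjusted rule (p with fold) 1050 and 1071 for 3SA liver and muscle. With all groups in one fit they were 766, 262, 96 (KO, insulin) and 2 (3SA muscle), by the unadjusted rule 1013 in 3SA muscle, and 0 members by that rule for insulin in KO. With the replicate block, 1 member met the unadjusted rule for insulin in WT, 0 for insulin in KO and 0 for KO after insulin, and 334 genes in 3SA muscle. Averaged fits gave 0 members by the unadjusted rule (1 at p under 0.05 alone) and 1262 genes by adjusted p for insulin, and 1 member and 205 genes by adjusted p for KO. Without 3SA muscle replicates 1 and 4 there were 2 members by either rule and 1505 and 2597 genes. Leaving out each sample gave adjusted gene counts of 105 to 409 and 42 to 608 (insulin), 2 to 47 and 3 to 48 (KO) and 0 to 464 (3SA muscle), with 0 to 1 members there. By the unadjusted rule members numbered 0 to 2 for insulin in WT, 0 to 2 in KO, 1 to 2 and 0 to 1 for KO, 0 to 1 for the interaction and 0 to 2 in 3SA muscle, and genes 818 to 1778 for KO after insulin and 378 to 2506 in 3SA muscle. The causes of these changes were not tested, apart from fewer samples where some were left out. Group means moved by at least 1 SD in 10 cases and by less in 302. Same-number samples paired unevenly, with r from -0.22 to 0.33. A sample matched best with its own number in 3 of 4 for KO against WT after saline and 2 of 4 for insulin in WT. In 3SA against WT muscle this held for 0 of 4. The labels give no pairing, so the paired fits, those with the replicate block, stand only as an alternative. Depth limits Usp28 most, at 73 to 361 counts in livers of the insulin experiment.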
